A study of Mus musculus with 31 samples.

Results

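The TGF-beta signalling genes of mouse microglia comprised 9 genes chosen by name: the ligands Tgfb1 and Tgfb2, the milieu molecule Nrros, the receptors Tgfbr1 and Tgfbr2, the receptor-activated Smads Smad2 and Smad3, and the inhibitors Smad7 and Ski. All 9 were found by symbol among the 55401 genes of the count tables. RNA sequencing had been performed on 31 libraries of mice of 13 months of age on the C57BL/6J background, 22 of CD11b+ cells isolated with magnetic beads from whole dissociated brain and 9 of temporo-occipital cortex. CD11b+ cells came from male wild-type (WT, n = 3) and male PLCγ2-P522R knock-in mice (KI, n = 4), both without the APP/PS1 transgenes, and from female A-/Pwt/wt (n = 7), A+/Pwt/wt (n = 4) and A+/Pki/ki mice (n = 4). Cortex came from female A-/Pwt/wt (n = 1), A+/Pwt/wt (n = 4) and A+/Pki/ki mice (n = 4). A+ mice carried APPswe/PS1dE9, that is, a chimeric mouse/human APP with the Swedish mutation and a human PS1 lacking an exon, which the mouse prion protein promoter drives and not a microglial one. Pki/ki mice were homozygous for the proline to arginine change in phospholipase C gamma 2, introduced with CRISPR/Cas9, a change that counts per gene cannot check.

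TGF-beta is secreted in a latent form, in which a propeptide encloses the growth factor until integrins or other activators release it. In the brain, microglia make TGF-beta1 and respond to it themselves, and NRROS, also known as LRRC33, holds the latent ligand on the membrane of microglia and related myeloid cells. The active ligand binds the type II receptor TGFBR2, which phosphorylates the type I receptor TGFBR1, and this kinase phosphorylates SMAD2 and SMAD3, which enter the nucleus with SMAD4. SMAD7 blocks the type I receptor and is itself induced by the pathway, whereas SKI binds the receptor Smads and represses their targets. The pathway is known for maintaining the homeostatic gene programme of microglia, including P2ry12, Tmem119 and Sall1.

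The libraries held 16.2 to 25.1 M counts in CD11b+ cells and 25.2 to 43.1 M in cortex, and the members had 192 to 33707 counts per library in CD11b+ cells and 264 to 8554 in cortex. None of 8 microglia markers was at 0 in any library, and their summed level was 11300 to 24900 CPM (counts relative to the library size after TMM scaling) in CD11b+ cells and 363 to 834 CPM in cortex. RNA of other cell types was present in the CD11b+ libraries. The 7 oligodendrocyte markers summed to 7080 to 75700 CPM and the 10 neuron markers to 184 to 4550 CPM there, with 0 of the markers of either list at 0. CD11b is also carried by border macrophages and neutrophils, whose 6 markers each summed to 181 to 587 and 33.1 to 1540 CPM. In such bulk samples, fewer cells of a type and less RNA per cell cannot be told apart. Batch tags in the labels were b1 for the males, b2 for the female A+ mice of both PLCγ2 genotypes and b3 for the female A-/Pwt/wt mice, so that the transgenes and the batch cannot be told apart in CD11b+ cells. Each library came from a mouse with its own number, except that number 236 was given both to an A-/Pwt/wt CD11b+ library and to an A+/Pwt/wt cortex library, and the labels were used as given.

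The members lie on 6 chromosomes of GRCm38. Tgfb1 (ENSMUSG00000002603) spans chr7:25687002-25705077 on the plus strand, Tgfb2 (ENSMUSG00000039239) chr1:186622792-186705989 on the minus strand and Nrros (ENSMUSG00000052384) chr16:32142785-32165594 on the minus strand. Tgfbr1 (ENSMUSG00000007613) spans chr4:47353222-47414931 on the plus strand and Tgfbr2 (ENSMUSG00000032440) chr9:116084293-116175360 on the minus strand. Smad3 (ENSMUSG00000032402) lies on the minus strand at chr9:63646767-63757994 and Ski (ENSMUSG00000029050) on the minus strand at chr4:155154075-155222592. Counts disregarded strand, and of the 9 members Tgfb2 alone had exon bases in common with another gene, 124 bases or 2.1% of its exons, with Gm29491 on the other strand.

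RefSeq promoter sequences of GRCm38.p6 were found for 7 of the 9 members, all but Smad2 and Smad7. The 250 bases before the start are shown for the 4 members with the highest CD11b+ to cortex ratios and for Smad3. Smad3 is included because it was called lower in KI males, a call that depended on the scaling. The aim was to set the start regions of these genes side by side. Capitals mark the Smad box CAGAC, bound by Smad proteins, and the core GAGGAA of PU.1, a factor of myeloid cells. Both were sought on either strand, and no match overlapped another. The windows are Tgfb1 chr7:25686752-25687001 (plus), Nrros chr16:32165595-32165844 (minus), Tgfbr1 chr4:47352972-47353221 (plus), Tgfbr2 chr9:116175364-116175613 (minus) and Smad3 chr9:63757995-63758244 (minus), each written 5′ to 3′ on the gene's strand.
Tgfb1: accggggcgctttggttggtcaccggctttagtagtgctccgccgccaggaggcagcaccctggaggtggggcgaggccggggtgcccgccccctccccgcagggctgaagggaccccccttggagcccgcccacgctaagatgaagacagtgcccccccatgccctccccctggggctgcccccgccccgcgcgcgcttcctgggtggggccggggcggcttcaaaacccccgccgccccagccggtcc
Nrros: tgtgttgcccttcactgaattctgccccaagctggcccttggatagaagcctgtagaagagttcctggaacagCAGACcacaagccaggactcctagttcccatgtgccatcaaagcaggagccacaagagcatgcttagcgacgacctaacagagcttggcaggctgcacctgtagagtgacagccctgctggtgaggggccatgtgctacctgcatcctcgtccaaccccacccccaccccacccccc
Tgfbr1: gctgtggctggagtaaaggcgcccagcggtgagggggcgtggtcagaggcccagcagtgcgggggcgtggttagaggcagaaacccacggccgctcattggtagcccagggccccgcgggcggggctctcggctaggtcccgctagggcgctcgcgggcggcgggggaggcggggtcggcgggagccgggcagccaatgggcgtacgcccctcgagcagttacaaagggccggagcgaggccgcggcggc
Tgfbr2: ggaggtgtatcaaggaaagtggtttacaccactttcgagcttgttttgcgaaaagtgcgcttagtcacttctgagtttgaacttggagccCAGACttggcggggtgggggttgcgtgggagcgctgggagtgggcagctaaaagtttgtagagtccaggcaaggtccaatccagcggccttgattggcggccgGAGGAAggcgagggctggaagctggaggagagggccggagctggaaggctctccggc
Smad3: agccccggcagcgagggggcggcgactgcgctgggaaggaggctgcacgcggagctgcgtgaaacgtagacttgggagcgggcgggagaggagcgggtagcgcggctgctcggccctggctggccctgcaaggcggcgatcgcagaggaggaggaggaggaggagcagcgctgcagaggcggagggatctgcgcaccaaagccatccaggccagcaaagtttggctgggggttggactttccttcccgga
Nrros held 1 Smad box at 177 bases before the start, and Tgfbr2 held 1 at 160 bases and 1 PU.1 core at 57 bases before it. No match to either motif was in the windows of Tgfb1, Smad3 or the Tgfbr1 start shown, nor in that of Ski, whereas a second annotated start of Tgfbr1 held 1 of each and Tgfb2 held 2 Smad boxes and 1 PU.1 core. Of all 32851 promoter windows of this length, 42.2% held the Smad box and 23.3% the PU.1 core. The palindrome GTCTAGAC, which 0.167% of all windows held, was in none of the 8 windows of the members. G and C made up 75.2% of the Tgfb1 window, 74.8% of that of Tgfbr1, 69.2% of that of Smad3 and 58.4% of those of Nrros and Tgfbr2, against a median of 52.4% over all windows.

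In CD11b+ cells, the type I receptor Tgfbr1 had the highest level of the members per exon length, 143 ± 34.8 CPM per kb (SD over the 22 libraries), and exceeded the next gene in 22 of 22 libraries. The co-repressor Ski followed with 74.4 ± 15.8, the ligand Tgfb1 with 67.9 ± 13.6 and the type II receptor Tgfbr2 with 57.7 ± 15.5 CPM per kb. These 3 did not separate beyond their spread, since Ski exceeded Tgfb1 in 17 and Tgfb1 exceeded Tgfbr2 in 15 of 22 libraries. A lower tier held Smad7 (24.9 ± 7.16), Nrros (24.2 ± 4.73) and Smad3 (18.3 ± 3.34 CPM per kb), of which Smad7 and Nrros could not be ordered (12 of 22 libraries). Smad2 (4.58 ± 0.65) and Tgfb2 (4.05 ± 1.37 CPM per kb) were lowest and did not separate either (14 of 22 libraries). Hence the CD11b+ libraries held more Smad3 than Smad2 RNA per length in 22 of 22 libraries and far more Tgfb1 than Tgfb2, the ranges being 38.1 to 90.2 and 1.35 to 7.55 CPM per kb.

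**Figure D1:**
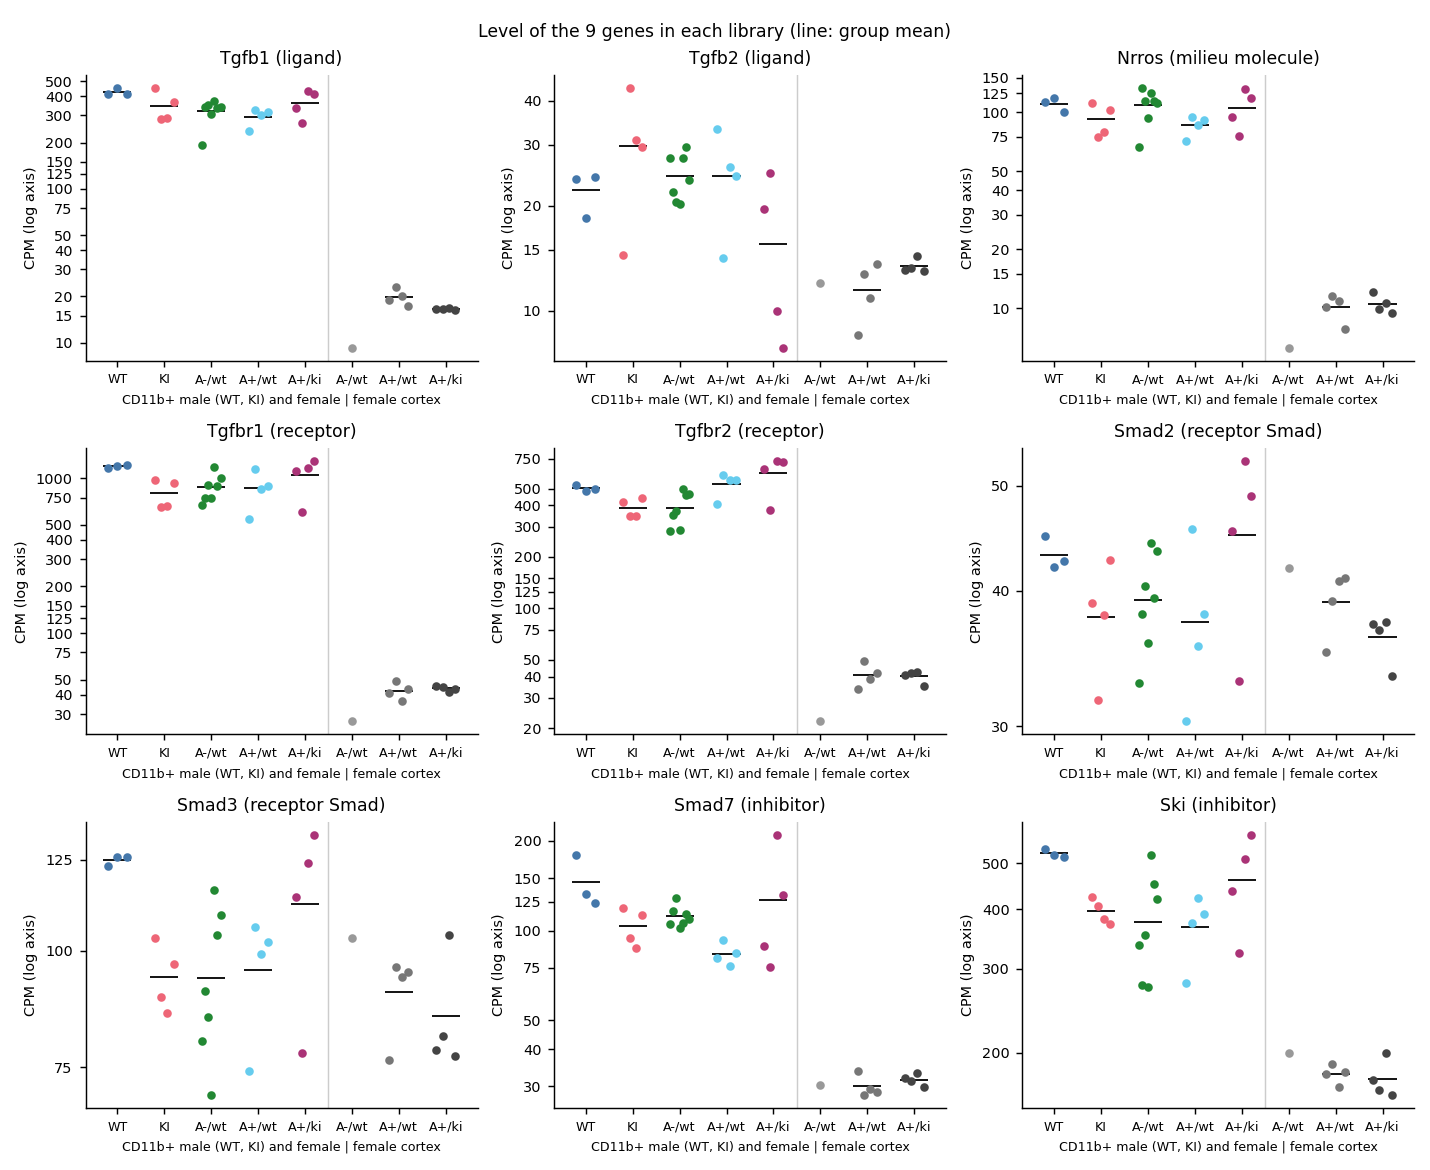
Level of the 9 genes in CPM (log axis) in each of the 31 libraries, by group, with a line at the mean of each group of more than 1 library. For Tgfb1, Nrros, Tgfbr1 and Tgfbr2 every CD11b+ library lay far above every cortex library, whereas Smad2 and Smad3 overlapped between them, and the single A-/Pwt/wt cortex library was lowest for these first 4 genes.

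In cortex, the order differed. Ski had the highest level per length (32.5 ± 2.43 CPM per kb, n = 9) and Smad3 the next (16.1 ± 2.03), with ranges that overlapped neither each other nor that of Smad7 (6.8 ± 0.428). Tgfbr1 (6.33 ± 0.985), Tgfbr2 (4.7 ± 0.935), Smad2 (4.34 ± 0.329) and Tgfb1 (3.41 ± 0.733) each overlapped their neighbours in range. Nrros (2.37 ± 0.439) and Tgfb2 (2.14 ± 0.304 CPM per kb) were lowest there.

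The question which members were higher in CD11b+ libraries was addressed by comparing them with cortex libraries of the same genotype. Markers of cells other than microglia were higher there too. Oligodendrocyte markers of A+/Pwt/wt mice summed to 22400 to 51900 CPM in CD11b+ and 3790 to 6420 CPM in cortex libraries. Endothelial markers summed to 1130 to 2180 against 183 to 261 CPM. Neuron and astrocyte markers were lower, at 904 to 1770 against 10200 to 11700 and 1010 to 2520 against 4870 to 5930 CPM. The part of these cells in the ratios was not tested. In A+/Pwt/wt mice, 8 of 9 members were higher in CD11b+ cells (edgeR quasi-likelihood test, FDR below 0.05), against 37.7% of all 18541 genes tested that were higher. Among the ligands, Tgfb1 was 236, 327, 300.0 and 315 CPM in the CD11b+ and 18.9, 22.9, 20.2 and 17.3 CPM in the cortex libraries. No value overlapped, and Tgfb1 was 18.4-fold higher (log2FC 4.20 ± 0.15 SE, adjusted p = 3.26e-09). Tgfb2 was 33.3, 14.2, 25.8 and 24.4 CPM in CD11b+ cells and 8.54, 12.8, 10.9 and 13.6 CPM in cortex, 2.65-fold higher (log2FC 1.41 ± 0.24, adjusted p = 0.000312).

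Nrros was 10.6-fold higher (log2FC 3.4 ± 0.15, adjusted p = 7.34e-09), with 71.7 to 94.9 CPM in CD11b+ cells and 7.85 to 11.6 CPM in cortex. The receptors showed the largest and the third largest ratio of the 9. Tgfbr1 was 548, 1140, 857 and 897 CPM in CD11b+ cells and 41.1, 48.9, 36.5 and 43.4 CPM in cortex, which was a 25.1-fold difference (log2FC 4.65 ± 0.23, adjusted p = 1.64e-08). Tgfbr2 was 16.2-fold higher (log2FC 4.02 ± 0.17, adjusted p = 7.44e-09), with 407 to 603 against 34.0 to 49.1 CPM.

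The receptor Smads differed little between the preparations. Smad3 was 74.3, 106, 99.2 and 102 CPM in CD11b+ cells and 76.3, 96.1, 93.8 and 94.9 CPM in cortex on the scales set within each tissue, and was 1.31-fold higher in the fit that scaled both together (log2FC 0.39 ± 0.13, adjusted p = 0.0169), with overlapping groups. Smad2 did not pass the test (log2FC 0.25 ± 0.12, adjusted p = 0.0793). The inhibitors were higher, Smad7 by 3.46-fold (log2FC 1.79 ± 0.10, adjusted p = 3.63e-08) and Ski by 2.54-fold (log2FC 1.34 ± 0.14, adjusted p = 4.29e-06), both without overlap. Altogether 7 members did not overlap and were higher, as were 34.8% of all genes tested.

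In A+/Pki/ki mice, 8 members were again higher in CD11b+ cells, with 36.8% of 18954 genes higher. The ratios were 28.2-fold for Tgfbr1, 26-fold for Tgfb1, 18.3-fold for Tgfbr2, 11.8-fold for Nrros, 4.75-fold for Smad7 and 3.11-fold for Ski. Smad3 (log2FC 0.65 ± 0.18, adjusted p = 0.0103) and Smad2 (log2FC 0.56 ± 0.14, adjusted p = 0.00497) were higher by less. Tgfb2 did not pass here (log2FC 0.47 ± 0.35, adjusted p = 0.242), as 7.84, 9.98, 19.6 and 24.9 CPM in CD11b+ cells spanned the 13.0 to 14.4 CPM of cortex. The CD11b+ and cortex libraries differed in brain region and in preparation as well as in cell content, and these cannot be told apart.

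**Figure D2:**
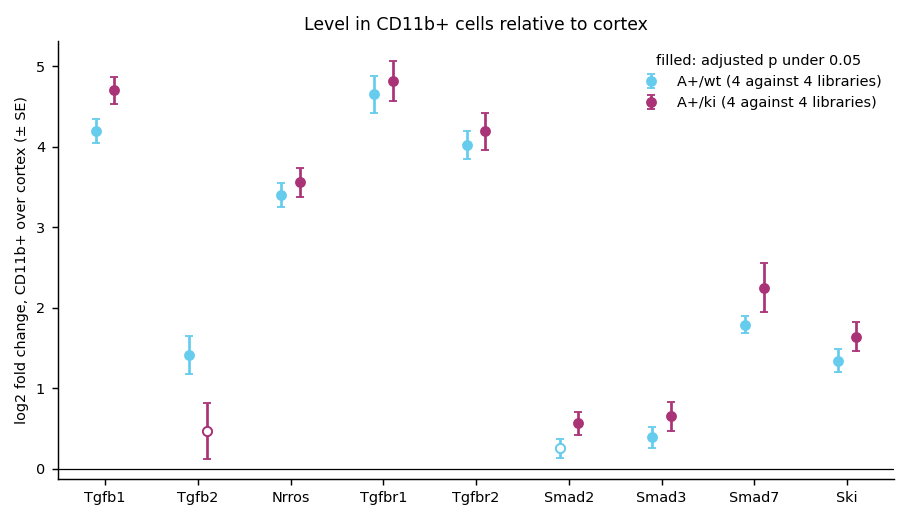
Log2 fold change of each member in CD11b+ cells over cortex (± SE), separately for A+/Pwt/wt and A+/Pki/ki mice (4 against 4 libraries each), with filled points for an adjusted p under 0.05. Tgfb1, Nrros, Tgfbr1 and Tgfbr2 lay between 3.4 and 4.82, whereas Smad2 and Smad3 lay between 0.25 and 0.65.

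The pathway genes with the most counts in CD11b+ cells were, among the genes of latency and activation, Itgb5 (mean of 1540 CPM over the 22 libraries), the latent TGF-beta binding protein gene Ltbp4 (368) and Itgb1 (349 CPM). Of the other ligands, Tgfb3 (25.7) and Gdf11 (7.73 CPM) had the most counts, and of the other receptors Eng, the co-receptor endoglin (286), Bmpr2 (152) and Acvrl1 (117 CPM). Smad5 (64.6) and Smad4, the partner of the receptor Smads (47.4 CPM), led the other Smads, and Pmepa1, a feedback inhibitor (267), Skil (217) and Fkbp1a (128 CPM) led the other inhibitors. Junb (1110) and Tsc22d1 (192 CPM) led the response genes, Rhoa (329) and Tab2 (181 CPM) the non-Smad branch, and Csf1r (5570) and Cx3cr1 (2940 CPM) were among the leading TGF-beta-dependent microglial genes. This order is one of counts, not of levels per gene length.

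Other genes of the pathway were given by a list of 95 genes. Of 94 tested in A+/Pwt/wt mice, 60 were higher and 23 lower in CD11b+ cells (median log2FC 1.00, against -0.055 over all genes tested), which was 63.8% and 24.5% of the list, against 37.7% and 40.2% of all genes. Among the genes of latency and activation, 10 of 14 were higher, including the integrin subunits Itgb5 (log2FC 4.26) and Itgb1 (2.79), whereas Itgb8, an integrin subunit known for activating latent TGF-beta from neighbouring cells, was lower. Of the 11 response genes, 7 were higher and 4 lower. All 12 genes listed as depending on TGF-beta in microglia were higher (median log2FC 4.72). Among them was Csf1r, the receptor that microglia need to survive (5.07 ± 0.20). Of these 12, 5 are also among the 8 microglia markers, so that higher values in CD11b+ cells were given by the preparation. The shares of the list include these 12 genes and are not shares of the signalling genes alone. In A+/Pki/ki mice, 58 of 94 were higher and 24 lower (median log2FC 0.83, against -0.084 over all genes), or 61.7% and 25.5%, against 36.8% and 39.8% of all genes.

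Whether the P522R change altered the members in the absence of amyloid was addressed in male CD11b+ cells. Of the 9 members, Smad3 and Ski were lower in KI than in WT mice and 7 did not pass the test, in a comparison in which 16.4% of 16373 genes were called and 5.26% were called lower. Smad3, the main transducer of TGF-beta signals to transcription, was 123, 126 and 126 CPM in the WT and 103, 89.2, 85.8 and 96.8 CPM in the KI libraries. All KI values lay below all WT values, and the difference was 0.772-fold (log2FC -0.37 ± 0.09 SE, adjusted p = 0.0209). Ski was 536, 520 and 516 CPM in WT and 424, 407, 382 and 372 CPM in KI mice, likewise without overlap (0.779-fold, log2FC -0.36 ± 0.11, adjusted p = 0.0476).

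The receptors and Smad7 missed the threshold in edgeR with estimates of the same sign. DESeq2's Wald test called Tgfbr1, Tgfbr2 and Smad7 as well as Smad3 and Ski, with 22.7% of all genes called. Limma called Tgfbr1, Smad3 and Ski, with 14.6% of all genes called. Tgfbr1 was 1170, 1200 and 1210 CPM in WT and 980, 652, 665 and 935 CPM in KI mice (log2FC -0.53 ± 0.16, adjusted p = 0.055). Tgfbr2 was 530, 489 and 502 against 418, 345, 345 and 443 CPM (log2FC -0.35 ± 0.12, adjusted p = 0.0662). Smad7 was 180, 133 and 124 against 119, 94.4, 87.5 and 113 CPM (log2FC -0.46 ± 0.15, adjusted p = 0.063). In these 3 genes the groups did not overlap either, which made 5 non-overlapping members, all with lower KI values, as in 17.2% of all genes tested.

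The ligands and Nrros overlapped between the groups. Tgfb1 was 411, 455 and 414 CPM in WT and 451, 285, 290 and 365 CPM in KI mice (log2FC -0.26 ± 0.16, adjusted p = 0.28), and Nrros was 113, 119 and 101 against 112, 74.8, 79.1 and 103 CPM (log2FC -0.23 ± 0.14, adjusted p = 0.272). For both genes KI mice 136 and 139 were lowest, and for Tgfb1 KI mouse 84 (365 CPM) also lay below every WT value. Tgfb2 had the opposite sign (log2FC 0.47 ± 0.31, adjusted p = 0.323), with 23.9, 18.5 and 24.2 against 14.5 to 43.7 CPM. Smad2 (log2FC -0.15 ± 0.11, adjusted p = 0.35) overlapped as well. The median over the 9 members was -0.35, against -0.0012 over all genes.

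Markers of several cell types moved with the KI group. All 10 neuron markers, all 8 astrocyte markers and 4 of 7 oligodendrocyte markers were called higher in KI males (median log2FC 2.11, 1.16 and 1.04). Their summed levels were 643 to 1390 CPM in KI and 196 to 287 CPM in WT mice for neurons and 994 to 2000 against 587 to 738 CPM for astrocytes, with no marker at 0. None of the 8 microglia markers was called, but the estimates were below 0 for 8 of 8 (median -0.36). The summed microglia markers were 13800, 15600, 19300 and 24900 CPM in KI mice 136, 139, 84 and 104 and 23800 to 24500 CPM in the WT mice. With libraries scaled to this sum in place of TMM, 0 members were called, and the estimates were 0.028 for Smad3 (adjusted p = 0.921), 0.053 for Ski (0.857), -0.15 for Tgfbr1 (0.403) and -0.072 for Smad7 (0.804). This scaling moved the median of all genes to 0.40, and 2070 genes were then higher and 4 lower, in place of 1824 and 861.

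In KI mouse 104, whose microglia markers were at the level of the WT mice, Smad3 (103 CPM), Ski (424), Tgfbr1 (980) and Tgfbr2 (418) lay below every WT value. So did Smad7 (119 CPM), Tgfb2 (14.5) and Smad2, whereas Tgfb1 (451) and Nrros (112) lay within the WT range. This library was not matched to the WT mice in other markers, with 762 CPM of neuron markers (196 to 287 in WT), 994 CPM of astrocyte markers (587 to 738) and 37200 CPM of oligodendrocyte markers (17900 to 22600). Per 1000 CPM of summed microglia markers, Smad3 was 5.14 to 5.25 CPM in WT and 4.14 to 6.46 CPM in KI mice, so that the groups overlapped. The same ratio was 21.2 to 22.5 against 17.0 to 29.5 CPM for Ski, which overlapped, and 49.0 to 50.4 against 39.4 to 48.4 CPM for Tgfbr1, which did not. The calls also depended on single libraries. Without KI mouse 104, 8 members were called, 7 lower and Tgfb2 higher, in a fit that called 33.5% of all genes. Without KI mouse 136 it was Smad3 alone, and without any of the other 5 libraries it was 0. Without both KI mice 136 and 139, an alternative chosen after seeing the data, 0 members were called (Smad3 -0.31, adjusted p = 0.0998, and Ski -0.39, adjusted p = 0.0936), with 5.81% of all genes called.

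**Figure D3:**
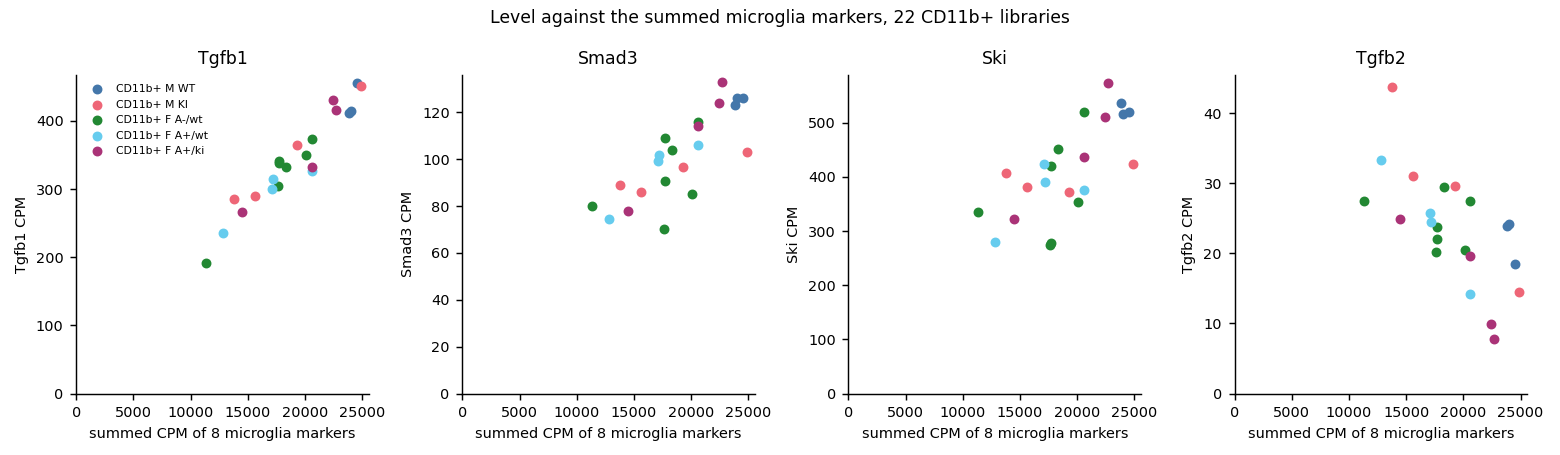
Level of Tgfb1, Smad3, Ski and Tgfb2 (CPM) in the 22 CD11b+ libraries against the summed level of 8 microglia markers in the same library, coloured by group. Tgfb1 rose with the marker sum across groups, Smad3 and Ski scattered more, with KI mouse 104 at 103 and 424 CPM below the WT males of the same marker sum, and Tgfb2 was lower where the markers were high.

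The pathway list showed calls in both directions in KI males, 7 higher and 7 lower of 92 tested (median log2FC -0.14). The 15.2% called were close to the 16.4% of all genes, so that the list did not stand apart in number of calls. Lower were among others the Smad repressors Skil (log2FC -0.65 ± 0.13, adjusted p = 0.0106) and Tgif1 (-0.70 ± 0.14, adjusted p = 0.0113), the activin receptor Acvr2b and the integrin subunit Itgb3. Sall1, a transcription factor of microglia, was lower as well (log2FC -0.53 ± 0.13, adjusted p = 0.0239). It belongs to the 12 TGF-beta-dependent microglial genes, of which 12 had estimates below 0 (median -0.42) and 2 were called, and 5 of these 12 are also among the 8 microglia markers. Higher were Id1 (0.84 ± 0.16, adjusted p = 0.0107) and Id3 (0.81 ± 0.15, adjusted p = 0.00922), targets known for BMP signals, and, among others, Ccn2, the ligands Tgfb3 and Inhbb, and Fkbp1a. The part of the other cell types in these differences was not tested.

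In female CD11b+ cells carrying the transgenes, the same change was compared between A+/Pki/ki and A+/Pwt/wt mice, and 0 of 9 members were called, with 0% of 17039 genes called by edgeR and 575 of them below 0.05 before adjustment. Neither DESeq2 nor limma called a member, and DESeq2 called 7 genes in all. The estimates lay above 0 for 8 of 9 members (median 0.22). Smad7 was 88.6, 75.6, 210 and 132 CPM in A+/Pki/ki and 81.2, 93.3, 76.0 and 84.3 CPM in A+/Pwt/wt mice (log2FC 0.53 ± 0.29, adjusted p = 0.853), the high values being those of mice 394 and 405. Tgfb2 was 19.6, 24.9, 9.98 and 7.84 against 33.3, 14.2, 25.8 and 24.4 CPM (log2FC -0.70 ± 0.42, adjusted p = 0.853).

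Smad3 and Ski had estimates of 0.18 ± 0.17 and 0.27 ± 0.19 here (adjusted p = 0.853 for both). Both were called lower in KI males, calls that depended on the scaling and on single libraries. Smad3 was 114, 77.8, 124 and 133 CPM in A+/Pki/ki and 74.3, 106, 99.2 and 102 CPM in A+/Pwt/wt mice, and Ski was 437, 323, 511 and 574 against 280, 375, 423 and 391 CPM. Mouse 335 was the lowest A+/Pki/ki library for 8 of the 9 members and mouse 331 the lowest A+/Pwt/wt library for 7, and these 2 had the lowest summed microglia markers of their groups (14500 and 12800 CPM, against 20600 to 22700 and 17100 to 20600 CPM). The microglia markers had estimates above 0 for 8 of 8 (median 0.22) and the neuron markers for 0 of 10 (median -0.85). The 6 neutrophil markers had the largest estimates, 6 of 6 above 0 with a median of 2.48 and 0 called. They summed to 1540 CPM in mouse 335 and to 33.1, 190 and 413 CPM in the other A+/Pki/ki mice, against 39.9 to 116 CPM in A+/Pwt/wt mice, with none at 0 in these libraries, and their part in the estimates was not tested. Without mouse 335 the estimates were 0.33 for Smad3 and 0.42 for Ski, and without mice 331 and 335 together, chosen after seeing the data, they were 0.23 and 0.31, with 0 members called in either fit. On the marker scaling, Smad3 (-0.024) and Tgfbr2 (-0.063) turned below 0.

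**Figure D4:**
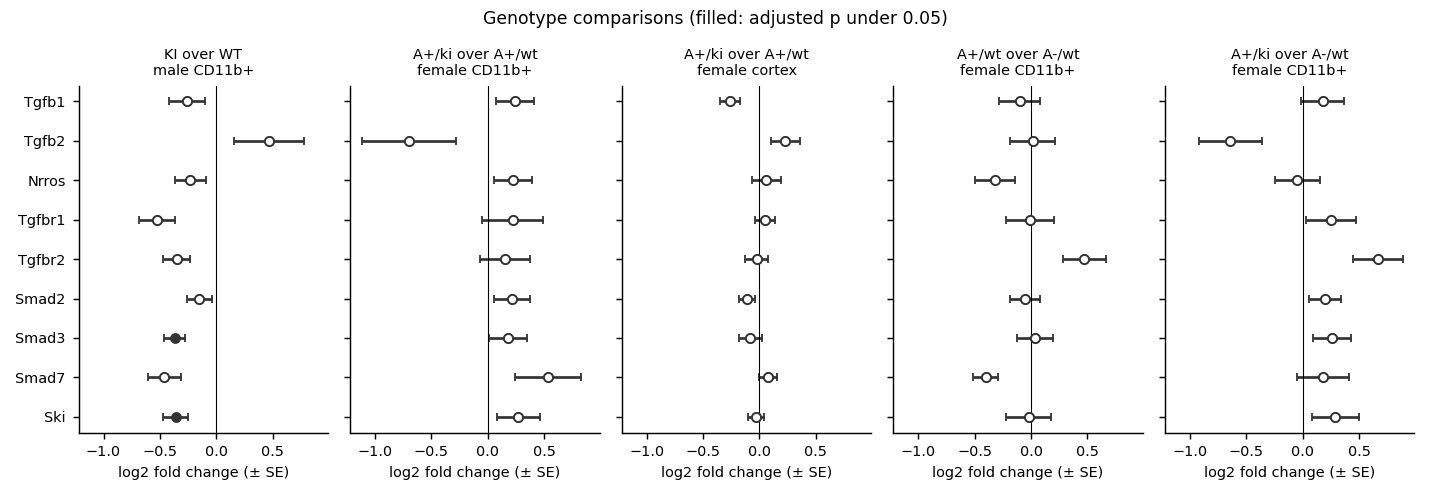
Log2 fold change (± SE) of each member in the 5 genotype comparisons, with filled points for an adjusted p under 0.05. The filled points are Smad3 (-0.37) and Ski (-0.36) in KI males, where 8 of 9 estimates were below 0, while 8 of 9 were above 0 between A+/Pki/ki and A+/Pwt/wt CD11b+ cells.

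The difference between the male and the female KI effect was tested itself, and 0 of 9 members passed, with 0% of 17619 genes called by edgeR and 4664 of them below 0.05 before adjustment. The estimates (male minus female) were -0.96 ± 0.36 for Smad7 (adjusted p = 0.146), -0.60 ± 0.23 for Ski (0.147) and -0.52 ± 0.20 for Smad3 (0.152), and 1.19 ± 0.57 for Tgfb2 (0.20). DESeq2 called 0 members and 1185 genes in all. This result rested on mouse 335. Without it, 9 of 9 members differed between the effects (adjusted p of 0.00475 for Smad3 to 0.0457 for Tgfb2), in a fit that called 35.4% of all genes, whereas leaving out any other single library gave 0. Without mice 331 and 335 together, where 26.8% of all genes were called, 5 members differed, namely Smad3 (-0.57, adjusted p = 0.00315), Ski (-0.63, adjusted p = 0.0126), Tgfbr2, Tgfbr1 and Smad7. Sex, transgenes and batch tag all differed between the 2 comparisons and cannot be told apart.

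In the cortex of A+ mice, 0 of 9 members differed between A+/Pki/ki and A+/Pwt/wt mice, with 0% of 18640 genes called by edgeR, 514 of them below 0.05 before adjustment, and 0 members called by DESeq2 or limma. Tgfb1 was the member with the smallest p. It was 16.5, 16.5, 16.9 and 16.3 CPM in A+/Pki/ki and 18.9, 22.9, 20.2 and 17.3 CPM in A+/Pwt/wt mice, so that the groups did not overlap, as in 0.901% of all genes tested with lower values (log2FC -0.26 ± 0.09, adjusted p = 1).

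The other 8 members overlapped, with log2FC between -0.11 for Smad2 and 0.23 for Tgfb2. The receptors were 41.4 to 45.8 against 36.5 to 48.9 CPM for Tgfbr1 and 35.1 to 42.8 against 34.0 to 49.1 CPM for Tgfbr2. Summed microglia markers were alike in range (666 to 761 and 638 to 834 CPM), and on the scale of these markers, added after seeing the data, Tgfb1 had a log2FC of -0.24 ± 0.12. Of 93 genes of the pathway list, 0 were called (median -0.0022).

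Whether the transgenes altered the members was addressed in female CD11b+ cells of the wild-type PLCγ2 genotype, and 0 of 9 were called between A+/Pwt/wt and A-/Pwt/wt mice, in which 1.29% of 17355 genes were called. Smad7, the inhibitor that the pathway induces, came closest in the edgeR test with TMM scaling. It was 81.2, 93.3, 76.0 and 84.3 CPM in A+/Pwt/wt mice and 102 to 129 CPM (median 109) in the 7 A-/Pwt/wt mice. The groups did not overlap, as in 1.38% of all genes with lower values (log2FC -0.40 ± 0.11, adjusted p = 0.12 by edgeR). DESeq2's Wald test called Smad7 (adjusted p = 0.00362) but 636 genes in all where edgeR called 224, limma did not (0.11), and without A-/Pwt/wt mouse 223 edgeR called it as well (adjusted p = 0.0455), with 2.88% of all genes. On the scale of the microglia markers, added after seeing the data, edgeR gave Smad7 a log2FC of -0.36 ± 0.17 (adjusted p = 0.737).

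Tgfbr2 was 407, 603, 564 and 562 CPM in A+/Pwt/wt and 283 to 502 CPM (median 372) in A-/Pwt/wt mice, a log2FC of 0.47 ± 0.19 that did not pass (adjusted p = 0.382). It did not pass on the scale of the microglia markers either (0.51 ± 0.15, adjusted p = 0.199 by edgeR). For the ligand Tgfb1 (-0.10 ± 0.18), Tgfbr1 (-0.01 ± 0.21), Smad3 (0.039 ± 0.16), Ski (-0.021 ± 0.20) and Tgfb2 (0.016 ± 0.20) the estimates were smaller than their SE. Border macrophage markers moved with the groups, at 181 to 214 CPM in A+/Pwt/wt and 256 to 587 CPM in A-/Pwt/wt mice, with 0 of 6 estimates above 0 and none at 0, and their part was not tested.

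Between A+/Pki/ki and A-/Pwt/wt mice, which shares the A-/Pwt/wt libraries with the comparison above, 0 of 9 members were called, with 1.64% of 17446 genes called. The transgenes, the PLCγ2 genotype and the batch tag all differed between these groups and cannot be told apart. Tgfbr2 was 653, 375, 727 and 715 CPM in A+/Pki/ki mice (log2FC 0.67 ± 0.22, adjusted p = 0.168), and was called without mouse 335 (log2FC 0.83, adjusted p = 0.0242), when 6.35% of all genes were called. Mouse 335 was the one A+/Pki/ki library within the A-/Pwt/wt range. Tgfb2 had a log2FC of -0.64 ± 0.28 (adjusted p = 0.307), and Smad7 of 0.18 ± 0.23 (adjusted p = 0.706). Of the pathway list, Thbs1, which encodes the activator thrombospondin-1 (log2FC 0.79 ± 0.17, adjusted p = 0.0453), was among the genes that were higher, and Ccn2 was lower (-1.29 ± 0.23, adjusted p = 0.0172).

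The single A-/Pwt/wt cortex library gave no test. It held 9.28 CPM of Tgfb1, 6.30 of Nrros, 26.9 of Tgfbr1 and 21.9 of Tgfbr2, each below the 8 libraries of A+ mice. Smad3 (103 CPM) and Smad7 (30.3 CPM) lay within the A+ range, and Smad2 (42.0 CPM) lay above the highest A+ value of 41.1 CPM. Its summed microglia markers were 363 CPM, against 638 to 834 CPM in the A+ libraries, and the part of this in the lower values was not tested.

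Across the 22 CD11b+ libraries, Tgfb1 varied most closely with the summed microglia markers (Pearson's r = 0.962 of log2 CPM), and within the 7 A-/Pwt/wt libraries r was 0.98. For Tgfbr1, Smad2 and Nrros r was 0.883, 0.808 and 0.799, for Smad3 0.781 (0.433 within the 7 A-/Pwt/wt libraries), for Ski 0.668, for Smad7 0.621 and for Tgfbr2 0.615. Tgfb2 alone varied inversely (r = -0.612), and its r with the oligodendrocyte markers was 0.724. Within the 7 A-/Pwt/wt libraries, r of Tgfb2 was -0.274 with the microglia markers and -0.183 with the oligodendrocyte markers, so that the latter changed sign. These values are descriptions, since the libraries share scaling and the groups, and the members share the content of microglia in each library. Between members, r was highest for Tgfbr1 and Smad3 and for Smad3 and Ski (0.917 each), and lowest for Tgfb2 and Smad2 (-0.688).

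The genes with the most similar pattern over the 22 libraries were sought among the 11341 genes whose mean level reached 5 CPM. For Tgfb1 they were Vsir, Rgs19 and Vav1 (r = 0.974, 0.959 and 0.955), genes of haematopoietic cells, and for Nrros they were Slc29a1, Tnfrsf1a and Il10ra (0.928, 0.923 and 0.922). For Tgfbr1 they were Inpp5d, Acp2 and Arhgef6 (0.968, 0.966 and 0.965). Inpp5d encodes the inositol phosphatase SHIP1 of myeloid cells.

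Among the genes most similar to Tgfbr2 were Tpp1, which encodes a lysosomal enzyme, and Cap1 (0.976 and 0.97), and Smad2 was most similar to Ctns, Vwa5a and Slmap (0.935, 0.935 and 0.929). Smad3 was most similar to Slc7a8, Mertk and Mfap3 (0.975, 0.973 and 0.969), Mertk being a receptor for the uptake of dying cells. Ski was most similar to Fgd3, Csf2rb2 and Cflar (0.96, 0.951 and 0.95). Smad7 went with Rnf19b, Jun and Rhob (0.906, 0.891 and 0.874), of which Jun and Rhob are immediate early genes, and Tgfb2 with Unc5b, Sh3bp4 and Tgfbr3 (0.938, 0.932 and 0.932), Tgfbr3 encoding the co-receptor betaglycan.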

How the data were processed

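Following the study's methods, the authors trimmed the paired-end reads with Trimmomatic 0.39, mapped them to GRCm38 with STAR 2.7.9a and release 25 of the mouse Gencode annotation, and used featureCounts 2.12.0 for unstranded counting of reads with a single mapping position. All tests but one used these deposited counts. The remaining one, limma, used the log2-like variance-stabilized table of the authors, which the study's captions call vst-normalized. Groups and mouse numbers came from the labels, columns were matched by name, and replicates were different mice.

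Each of 8 comparisons was fitted on its own libraries with the quasi-likelihood test in edgeR 4.0.16 (R 4.3.3; two-sided, TMM, Benjamini-Hochberg over all genes tested, threshold 0.05), keeping a gene when 3 libraries or more had 10 counts or more. The SE was derived from the log2FC and the F statistic. CPM used TMM factors over the 22 CD11b+ or the 9 cortex libraries, and CPM per kb used exon lengths of Gencode release 21, which also gave the gene coordinates. Alternatives were DESeq2 1.42.0 (size factors, Wald test), other filters, limma 3.58.1, one fit over all groups, scaling to 8 microglia markers and leaving out each library. The tests were run on simulated data with known changes first.

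Members, lists and the rule for named genes were chosen with earlier results of these data known. Named by the rule were the 9 members, the 3 pathway genes per role with the most counts, up to 5 pathway genes per comparison with the largest called changes at a mean of 5 CPM or more, and the 3 genes most similar to each member. Itgb8 and, among the calls in KI males, Itgb3, Acvr2b, Inhbb, Tgif1 and Sall1 were named after their values were seen. Some genes that the rule would name are not reported here.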

Additional observations from a re-analysis of the deposited data

Results flagged for a closer look

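The levels of the 9 members in each of 6 groups of 4 or 7 libraries gave 54 sets of values. Each was searched by Dixon's criterion for a library that stood apart from the rest of its group, and 4 were found. Chance gives about 2.7 on average. The sets share libraries and members vary together across them, which widens the spread around this number, so that nothing is read from the difference. Tgfb1 was 192 CPM in A-/Pwt/wt CD11b+ mouse 223, against 305 to 373 CPM in the other 6 libraries. The summed microglia markers of this library were also the lowest of its group (11300 CPM), and their part was not tested. In A+/Pki/ki cortex, Smad2 was 33.4 CPM in mouse 222, against 36.8 to 37.4 CPM in the others, and Smad3 was 104 CPM in mouse 216, against 77.2 to 81.0 CPM. In A+/Pwt/wt cortex, Smad3 was 76.3 CPM in mouse 236, against 93.8 to 96.1 CPM. The last of these carries the number that was also given to a CD11b+ library of another genotype.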

How the results depend on the processing

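In KI males, 2 members were called, with 16.4% of all genes. DESeq2's Wald test called 5 (Tgfbr1, Tgfbr2, Smad3, Smad7 and Ski), with 22.7% of all genes, and limma 3 (Tgfbr1, Smad3 and Ski), with 14.6%. It was 0 without a filter on low counts (10.4% of all genes), on the scale of the microglia markers (12.7%) and without mice 136 and 139 (5.81%). Leaving out 1 library gave 0 to 8 members, with 5.52% to 33.5% of all genes. The marker scale turned the sign of Tgfb1 (0.11), Nrros (0.14), Tgfbr2 (0.043), Smad2 (0.25), Smad3 (0.028) and Ski (0.053) there, of Tgfbr2 (-0.063) and Smad3 (-0.024) between A+/Pki/ki and A+/Pwt/wt CD11b+ cells, of Tgfbr1 (0.00021) and Ski (0.0099) between A+/Pwt/wt and A-/Pwt/wt, and of Tgfb1 (-0.0035), Smad2 (-0.013) and Smad7 (-0.078) between A+/Pki/ki and A-/Pwt/wt. In the A+/Pwt/wt against A-/Pwt/wt comparison, limma turned Tgfb2 (-0.023) and Ski (0.00067), and DESeq2's Wald test called 1 member, with 3.66% of all genes. In each A-/Pwt/wt comparison, leaving out 1 library gave 0 to 1 members, with 0.529% to 2.88% of all genes for A+/Pwt/wt and 0.331% to 6.35% for A+/Pki/ki. For the difference of the KI effects it gave 0 to 9, with 0% to 35.4% of all genes. Leaving out mice 331 and 335 gave 5 there, with 26.8%. The cause of these changes was not tested.

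Estimates that changed sign when 1 library was left out ranged as follows. In cortex, Nrros ranged from -0.046 to 0.13, Tgfbr1 from -0.013 to 0.12, Tgfbr2 from -0.10 to 0.073 and Ski from -0.092 to 0.0079. Between A+/Pwt/wt and A-/Pwt/wt, Tgfb2 ranged from -0.18 to 0.20, Tgfbr1 from -0.18 to 0.14, Smad2 from -0.16 to 0.023, Smad3 from -0.034 to 0.13 and Ski from -0.11 to 0.077. Between A+/Pki/ki and A-/Pwt/wt, Nrros ranged from -0.17 to 0.066 and Smad7 from -0.17 to 0.35. Over all genes, DESeq2 called 636 genes in place of 224 and 956 in place of 286 against A-/Pwt/wt (371 higher and 265 lower, in place of 175 and 49, in the first), 1 fit over all groups gave 510 in place of 286, the marker scale 167, and the unfiltered cortex fit 40 and DESeq2 11 in place of 0. Without a filter, 2597 genes were higher and 603 lower in KI males. Single libraries moved the calls over all genes from 894 to 5439 in KI males, 91 to 497 and 57 to 1097 against A-/Pwt/wt, and 0 to 6199 for the difference. No paired analysis was possible because the groups compared share no mouse numbers that pair their libraries. The depth gave each member at least 192 counts in each library.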
